A study of Arabidopsis thaliana with 6 samples.

Results

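The 10 genes described here are NAC transcription factors with known roles in leaf senescence, followed in fully mature leaves of the Arabidopsis mutant *flpl1* and of its wild type (WT) Col-0. They were chosen by locus number: *ORE1* (also named *NAC6*, AT5G39610), *NAP* (AT1G69490), *ORS1* (AT3G29035), *NAC046* (AT3G04060), *ATAF1* (AT1G01720), *ANAC019* (AT1G52890), *ANAC055* (AT3G15500), *RD26* (AT4G27410), *JUB1* (AT2G43000) and *VNI2* (AT5G13180). These genes, and the lists compared with them below, were chosen with earlier results of these data known. Setting them beside all tested genes is therefore a description. All 10 are among the 32243 genes listed in the deposited tables. Their levels were measured by RNA-seq in 6 libraries, 1 from each of 3 *flpl1* plants and 3 Col-0 plants. *flpl1*, labelled C30-81-as6, is a line obtained by carbon-ion irradiation of dry Col-0 seeds, and it flowers late, has wrinkled leaves without petioles and carries an additional chromosome, an extra copy of Chr. 2. The *flpl1* plants were picked by their phenotype and by a higher DNA content in flow cytometry, so the group stands for plants of 1 mutant line that carry other irradiation changes besides the extra chromosome. All plants were of the same age in days, and Col-0 flowers earlier than the mutant. Genotype and developmental stage at harvest therefore cannot be told apart in any of the comparisons.

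NAC proteins are a plant-specific family that bind DNA through a conserved domain near the N-terminus. In an ageing leaf they form a cascade between hormone signals, mainly ethylene, abscisic acid and jasmonate, and the genes that dismantle chlorophyll, proteins and nucleic acids so that nutrients can leave the leaf. ORE1 acts below the ethylene components EIN2 and EIN3, and the microRNA miR164 lowers its mRNA in younger leaves. NAP, ORS1, NAC046 and ATAF1 also promote senescence, ANAC019, ANAC055 and RD26 respond to drought, abscisic acid and jasmonate, and JUB1 and VNI2 delay senescence.

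The miR164 sequences are shown because miR164 is the known microRNA regulator of *ORE1*. In the RefSeq annotation of TAIR10.1, miR164a and miR164b have the same mature sequence, and miR164c differs from them at the last base. The seed, bases 2 to 8, is in capitals.
miR164a, chr2:19520770-19520790, plus strand: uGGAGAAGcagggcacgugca
miR164c, chr5:9852684-9852704, plus strand: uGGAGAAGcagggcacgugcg

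The mRNAs of 31342 genes were scanned for matches to these sequences, with 1 point for a mismatch, 0.5 for a G:U pair and double weight at bases 2 to 13 of the microRNA. A score of 4 or less was reached in 10 genes (0.0319%), of which 6 were NAC genes and 1, *ORE1*, was among the 10 genes followed here. The site of *ORE1* and those of the other tested NAC genes lie in the coding sequence of exon 3 of 3. Capitals mark the bases in A:U or G:C pairs with the microRNA, in DNA letters. Bases in a G:U pair are in lower case, as are mismatches.
ORE1 site, chr5:15858797-15858817, minus strand: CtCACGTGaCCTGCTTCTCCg
NAC1 site, chr1:20947142-20947162, minus strand: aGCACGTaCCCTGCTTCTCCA
NAC080 site, chr5:2436958-2436978, plus strand: TttACGTGCCCTGCTTCTCCA
NAC100 site, chr5:24701687-24701707, minus strand: TctACGTGCCCTGCTTCTCCA

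*ORE1* scored 3.5, *NAC1* 2.0, and *NAC080* and *NAC100* 1.5 each. *ORS1*, named as the sister gene of *ORE1*, had a best score of 6.5 and so no site at this limit, and the other 8 genes scored between 9.0 and 12. The remaining NAC sites were in *CUC1* and *CUC2*, boundary genes of the meristem, which had at most 0.26 FPKM (fragments per kilobase, scaled to library size) in any library. The precursor genes of miR164 have no row in the tables used here, so the microRNA was not measured. A match of this kind is a description of the sequence.

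The 250 bases before the annotated start were read for each gene from the same assembly and searched on both strands for the G-box (CACGTG), the core of the abscisic acid response element (ACGTG) and the core of the W-box of WRKY factors (TTGAC). A G-box also counts as an abscisic acid response core on both strands. The G-box was present in 6.85% of 32032 such windows and in 3 of the 10 genes, *ATAF1* with 2, and *ANAC019* and *ANAC055* with 1 each. The response core was in 23.3% of windows and in 5 of the 10 genes, the same 3 together with *NAC046* and *RD26*. The W-box core was in 44.2% of windows and in 5 of the 10, *ATAF1*, *NAP*, *JUB1*, *VNI2* and *ORE1*. The windows of the genes with a G-box and that of *ORE1*, which has none, are printed with the motifs in capitals.
ATAF1, chr1:268080-268329, plus strand: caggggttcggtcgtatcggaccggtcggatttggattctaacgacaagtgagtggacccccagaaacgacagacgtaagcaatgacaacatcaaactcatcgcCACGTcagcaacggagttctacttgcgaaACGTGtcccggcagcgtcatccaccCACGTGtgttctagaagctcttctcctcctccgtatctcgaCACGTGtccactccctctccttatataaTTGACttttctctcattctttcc
ANAC019, chr1:19698483-19698732, minus strand: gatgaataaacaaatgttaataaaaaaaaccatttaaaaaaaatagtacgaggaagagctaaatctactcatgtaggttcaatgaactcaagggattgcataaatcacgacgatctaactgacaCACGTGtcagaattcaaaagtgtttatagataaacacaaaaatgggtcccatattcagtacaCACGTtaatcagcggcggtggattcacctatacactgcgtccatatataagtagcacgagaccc
ANAC055, chr3:5234367-5234616, plus strand: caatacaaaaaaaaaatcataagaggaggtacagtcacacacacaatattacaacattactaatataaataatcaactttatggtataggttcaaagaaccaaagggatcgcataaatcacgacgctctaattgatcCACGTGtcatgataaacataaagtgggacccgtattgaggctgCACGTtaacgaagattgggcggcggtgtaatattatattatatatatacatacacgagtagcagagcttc
ORE1, chr5:15859789-15860038, minus strand: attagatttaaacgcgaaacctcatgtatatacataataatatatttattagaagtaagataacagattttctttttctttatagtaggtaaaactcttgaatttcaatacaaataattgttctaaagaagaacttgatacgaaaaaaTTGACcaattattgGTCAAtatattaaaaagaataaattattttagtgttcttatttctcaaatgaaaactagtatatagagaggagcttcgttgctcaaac

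The windows of *ANAC019* and *ANAC055* share a run of 15 bases, gcataaatcacgacg, which begins at position -153 from the start of *ANAC019* and at -140 from that of *ANAC055*. It was found in 2 of the 32032 windows, these same ones. *ANAC019* and *ANAC055* are close paralogs, and the shared run describes the letters only.

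The libraries held between 19465078 and 24633070 counts on genes. The counts were tested with edgeR's quasi-likelihood method, with Benjamini-Hochberg adjustment over the 18638 genes that passed a filter on low counts, and a gene was called when its adjusted p was under 0.05 and its fold change at least 2. By this rule 14.4% of the tested genes were called lower and 19.8% higher in *flpl1*, and 69.8% had no overlap between the libraries of the groups, so a call or a clean separation was common in this contrast. The summed FPKM of 6 photosynthesis genes of the leaf was 47080 to 48880 in *flpl1* and 16650 to 35730 in Col-0. Of these 6, *RBCS1A* and *RBCS2B* were called higher and 4 were not called, with *RCA* at a log2 fold change of 0.24. *CAB1* was at 16225.07 FPKM in Col-0 replicate 1, above each *flpl1* library. The root genes *BGLU21* and *BGLU22* and the flower gene *AP1* were at 0 in every library. The summed FPKM of 5 genes of dividing cells was 8.68 to 17.18 in *flpl1* against 0.72 to 1.09 in Col-0, with 5 of 5 called higher. For 5 vascular genes it was 135.6 to 180.7 against 161 to 210.9, most of it from the phloem gene *SUC2*. *SUC2* (log2 fold change -0.21) and the phloem gene *APL* (0.77) were not called, and the xylem wall genes *IRX1* and *IRX3* were called higher. For the 5 flower genes the summed FPKM was 2.40 to 3.04 against 3.52 to 8.54. Here *PI* and *SEP3* were called lower and *AG* higher (2.28, 2.52 and 2.75 FPKM in *flpl1* against 1.18, 1.14 and 1.05 FPKM in Col-0). Col-0 replicate 1 held the highest sum, with *PI* at 6.08 FPKM. That of the 5 root genes was 8.08 to 9.73 against 9.88 to 14.47. Most of it was *SCR*, which was not called (log2 fold change -0.03). *SCR* was at 9.68, 8.05 and 8.28 FPKM in *flpl1* and at 9.89, 9.92 and 9.48 FPKM in Col-0. *PYK10* was called lower, with 4.56 FPKM in Col-0 replicate 1 and at most 0.40 FPKM in any other library. The part of these differences in the results that follow was not tested. In bulk leaf RNA, fewer cells of a type and less RNA per cell cannot be told apart.

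Of the 10 NAC genes, 9 fell in *flpl1* and 0 rose. All 10 had passed the filter, and the 9 called lower stand beside 14.4% of all tested genes called lower and 34.2% called in either direction. An adjusted p under 0.05 at any fold was found for the same 9, beside 61.6% of all tested genes. The libraries of the groups did not overlap for 9 of the 10, beside 69.8% of all tested genes. The median log2 fold change of the 10 was -3.39, beside 0.00 for all tested genes. All 10 log2 fold changes were below 0 in edgeR, and none was above 0 in DESeq2, limma or the other alternatives that could test the gene. Their summed FPKM was 102.8 to 147.4 in *flpl1* and 550.2 to 938.7 in Col-0. The falls were unequal. *ORE1*, *ORS1* and *NAC046* were near 0 in *flpl1*, *NAP*, *ATAF1*, *RD26* and *VNI2* kept a clear level, and *JUB1* was not called.

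**Figure D1:**
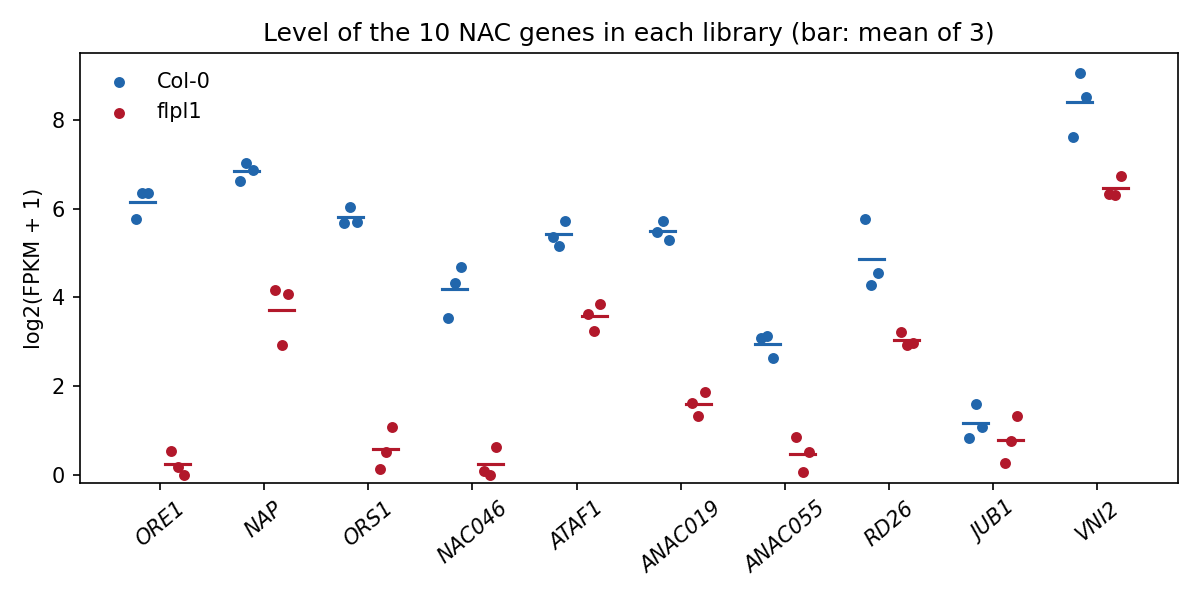
Level of each of the 10 NAC genes as log2(FPKM + 1), with 1 point per library (blue, Col-0; red, *flpl1*; n = 3 each) and bars at the mean of 3 libraries. The colours are separated for 9 genes and overlap for *JUB1*.

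The 5 genes that promote senescence all fell, beside 14.4% of all tested genes called lower, with a median log2 fold change of -6.30. *ORE1*, which turns on nucleases and chlorophyll breakdown, was at 0.45, 0.13 and 0.00 FPKM in the *flpl1* libraries (13, 3 and 0 counts) and at 53.11, 80.25 and 79.98 FPKM in the Col-0 libraries (1553, 2215 and 1848 counts). It was thus plainly expressed in every Col-0 library and close to undetected in each *flpl1* library. Its log2 fold change was -8.27 ± 0.55 (SE; edgeR, adjusted p = 7.93e-05). The size of this value rests on a few counts, as it was -9.95 without *flpl1* replicate 1 and -7.67 without *flpl1* replicate 3, with the gene called in both cases.

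*ORS1*, which has a role like that of *ORE1*, had 0.09, 0.42 and 1.10 FPKM in *flpl1* and 49.80, 64.55 and 51.16 FPKM in Col-0. The *flpl1* libraries were all far below the lowest Col-0 library, and *flpl1* replicate 3 was the highest of them. The log2 fold change was -6.55 ± 0.54 (SE; edgeR, adjusted p = 0.000122), and -7.64 without *flpl1* replicate 3. *NAC046*, an activator of chlorophyll breakdown genes, was at 0.06, 0.00 and 0.55 FPKM in *flpl1* (2, 0 and 18 counts) and at 10.54, 19.06 and 24.63 FPKM in Col-0. Here too *flpl1* replicate 3 held most of the counts of its group, and the groups did not overlap. The log2 fold change of *NAC046* was -6.30 ± 0.74 (SE; edgeR, adjusted p = 0.000384), and it moved to -8.87 without *flpl1* replicate 3.

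*NAP*, which links age and abscisic acid to stomatal control and chlorophyll loss, was at 16.80, 6.62 and 15.89 FPKM in *flpl1* and at 98.13, 128.93 and 116.34 FPKM in Col-0. It stayed clearly detected in the mutant, with 445, 146 and 388 counts, and *flpl1* replicate 2 was the lowest. Its log2 fold change was -2.97 ± 0.32 (SE; edgeR, adjusted p = 0.000275). *ATAF1*, an activator of *ORE1* that also represses the chloroplast factor gene *GLK1*, was at 11.27, 8.41 and 13.45 FPKM in *flpl1* and at 39.76, 34.90 and 52.08 FPKM in Col-0. The groups were separated, with a log2 fold change of -1.80 ± 0.22 (SE; edgeR, adjusted p = 0.000423), the smallest fall among the 5 promoters of senescence. *ATAF1* overlaps AT1G01725 on the opposite strand by 28 bp. That gene was at 8.34, 10.79 and 14.62 FPKM in *flpl1* and at 43.64, 52.40 and 56.93 FPKM in Col-0. Whether strand was used in counting is not given in the sources, and reads in the shared 28 bp may belong to either gene.

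The stress-responsive genes *ANAC019*, *ANAC055* and *RD26* also fell, 3 of 3, beside 14.4% of all tested genes called lower. Their median log2 fold change was -3.80. *ANAC019* had 2.08, 1.48 and 2.64 FPKM in *flpl1* and 43.16, 51.94 and 38.01 FPKM in Col-0. This was an even difference across the libraries, with a log2 fold change of -4.27 ± 0.22 (SE; edgeR, adjusted p = 6.58e-05). Its paralog *ANAC055* was at a lower level, 0.81, 0.04 and 0.42 FPKM in *flpl1* (25, 1 and 12 counts) and 7.52, 7.70 and 5.16 FPKM in Col-0. The groups did not overlap. The log2 fold change was -3.80 ± 0.63 (SE; edgeR, adjusted p = 0.00164), and -4.68 without *flpl1* replicate 1.

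*RD26*, which responds to dehydration and promotes the loss of chloroplast proteins and the catabolism of lysine, was at 8.34, 6.61 and 6.88 FPKM in *flpl1* and at 53.48, 18.31 and 22.21 FPKM in Col-0. All *flpl1* libraries were below all Col-0 libraries, but Col-0 replicate 1 stood well above the other 2. The log2 fold change was -2.01 ± 0.45 (SE; edgeR, adjusted p = 0.00612). Without Col-0 replicate 1 it was -1.28, and *RD26* was still called. Over 15 alternatives its adjusted p lay between 8.06e-06 and 0.0505, the highest from edgeR's test against a 2-fold change, in which *RD26* was not called.

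The inhibitors of senescence differed from each other in their calls. *VNI2*, a NAC repressor that binds the xylem factor VND7 and delays leaf ageing, had 79.92, 78.42 and 104.97 FPKM in *flpl1* and 193.91, 531.04 and 365.78 FPKM in Col-0. It fell with a log2 fold change of -1.87 ± 0.30 (SE; edgeR, adjusted p = 0.00148), and the groups did not overlap although the Col-0 libraries were widely spread. *JUB1*, a repressor of senescence that acts through *DREB2A* and the synthesis of gibberellin and brassinosteroid, was at 0.19, 0.68 and 1.48 FPKM in *flpl1* (4, 12 and 29 counts) and at 0.78, 2.0 and 1.11 FPKM in Col-0 (17, 41 and 19 counts). The groups overlapped, and no difference was detectable at this depth. The log2 fold change was -0.57 with a 95% interval of -2.12 to 0.97 (edgeR, adjusted p = 0.475), and -1.40 without *flpl1* replicate 3. Whether the inhibitors differ from each other was not tested.

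*JUB1* is also the only one of the 10 on Chr. 2. The median log2 fold change was 0.55 for the tested genes of Chr. 2 and -0.10 for those of the other chromosomes. *JUB1* was at -1.12 relative to the median of its chromosome, but the 95% interval of its log2 fold change (-2.12 to 0.97) includes that median.

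The FPKM values, which are levels per length, also gave an order of the genes within each group. In Col-0, *VNI2* was highest at 363.6 ± 168.6 FPKM, followed by *NAP* at 114.5 ± 15.5, *ORE1* at 71.1 ± 15.6, *ORS1* at 55.2 ± 8.15, *ANAC019* at 44.4 ± 7.04, *ATAF1* at 42.2 ± 8.86, *RD26* at 31.3 ± 19.3, *NAC046* at 18.1 ± 7.10, *ANAC055* at 6.79 ± 1.42 and *JUB1* at 1.30 ± 0.631 (SD, n = 3). From *ORE1* down to *NAC046*, the range of each gene over the libraries overlapped with that of the next in this order. *VNI2*, *NAP*, *ANAC055* and *JUB1* were each separated from their neighbours. Within each Col-0 library, however, *ORE1* was above *ORS1* and *ORS1* above *ANAC019*. The neighbours from *ANAC019* down to *NAC046* changed order between libraries. The order in *flpl1* was another one. *VNI2* led at 87.8 ± 14.9 FPKM, then came *NAP* at 13.1 ± 5.63, *ATAF1* at 11.0 ± 2.53, *RD26* at 7.28 ± 0.931 and *ANAC019* at 2.07 ± 0.580 (SD, n = 3). *JUB1*, *ORS1*, *ANAC055*, *NAC046* and *ORE1* all had means under 1 FPKM in *flpl1*. From *ANAC019* downwards the ranges of neighbours in the order overlapped, as did those of *NAP* and *ATAF1*. Within each *flpl1* library *ANAC019* was above *JUB1* and *JUB1* above *ORS1*, the latter pair on few counts. *ORE1* thus had the third mean in Col-0 and the lowest in *flpl1*, among genes that did not differ there beyond their spread. The inhibitor *VNI2* made up 35.24% to 56.57% of the summed FPKM of the 10 genes in the Col-0 libraries and 66.59% to 76.28% in the *flpl1* libraries.

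**Figure D2:**
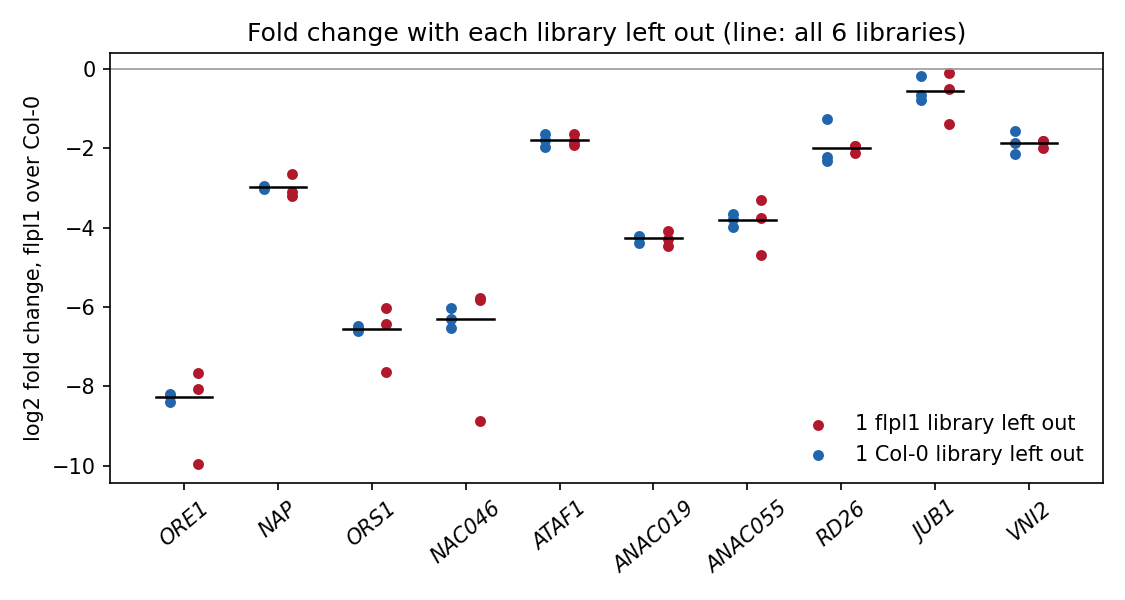
Log2 fold change of *flpl1* over Col-0 for each of the 10 genes with each library left out in turn (red, 1 *flpl1* library; blue, 1 Col-0 library) beside the value from all 6 libraries (line). The values of *ORE1* and *NAC046* spread when *flpl1* libraries were left out, down to -9.95 and -8.87, and *RD26* moved without Col-0 replicate 1, to -1.28.

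The genes with profiles most like those of *ORE1* and *NAP* were sought by Pearson's r of log2 CPM (counts scaled to library size) over the 6 libraries. For *ORE1* they were AT5G22850 (r = 0.9991), *BPM2* (0.9986) and *RMR1* (0.9986), and for *NAP* they were AT3G01400 (0.9991), *REV7* (0.9984) and AT3G53310 (0.9984). Such values were common with 6 points that share the group difference, as 98 genes had an r above 0.99 with *ORE1* and 89 with *NAP*. These genes changed less than *ORE1* and *NAP*, with log2 fold changes from -1.71 in AT3G01400 to -0.45 in *BPM2*.

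Other NAC genes with known roles in leaf senescence were compared as well. Of 11 listed, 10 were tested, 4 fell and 0 rose, and the median log2 fold change was -0.91. Among all tested genes, 14.4% were called lower and 19.8% higher. *ANAC016*, a promoter of senescence, was at 0.26, 0.41 and 0.37 FPKM in *flpl1* and at 6.08, 9.26 and 7.07 FPKM in Col-0, and its log2 fold change was -4.26 ± 0.24 (SE; edgeR, adjusted p = 6.58e-05). *ANAC047* fell by 3.66 and *ANAC032* by 1.29 on the log2 scale, although *ANAC032* was at -0.94 without Col-0 replicate 3, under the 2-fold limit, and *ANAC047* at -4.60 without *flpl1* replicate 1. *ANAC087* was called at -1.70 (edgeR, adjusted p = 0.0466). It lost the call without *flpl1* replicate 1 (-1.39), *flpl1* replicate 2 (-2.0), *flpl1* replicate 3 (-1.76), Col-0 replicate 2 (-1.93) or Col-0 replicate 3 (-0.88). The promoter *NTL4* (-0.60) and the inhibitors *ANAC017* (-0.86) and *ANAC082* (-0.77) had an edgeR adjusted p under 0.05 but were under the 2-fold limit. The same held for *ANAC102* (-0.95) and *ATAF2* (-0.80). *ANAC102* was called without *flpl1* replicate 1 (-1.12) or Col-0 replicate 2 (-1.10), and *ATAF2* without *flpl1* replicate 3 (-1.0). *ANAC075*, also known as an inhibitor, was at 0.02 with a 95% interval of -0.64 to 0.69. The inhibitor *ANAC090*, at most 1.17 FPKM, did not pass the filter.

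**Figure D3:**
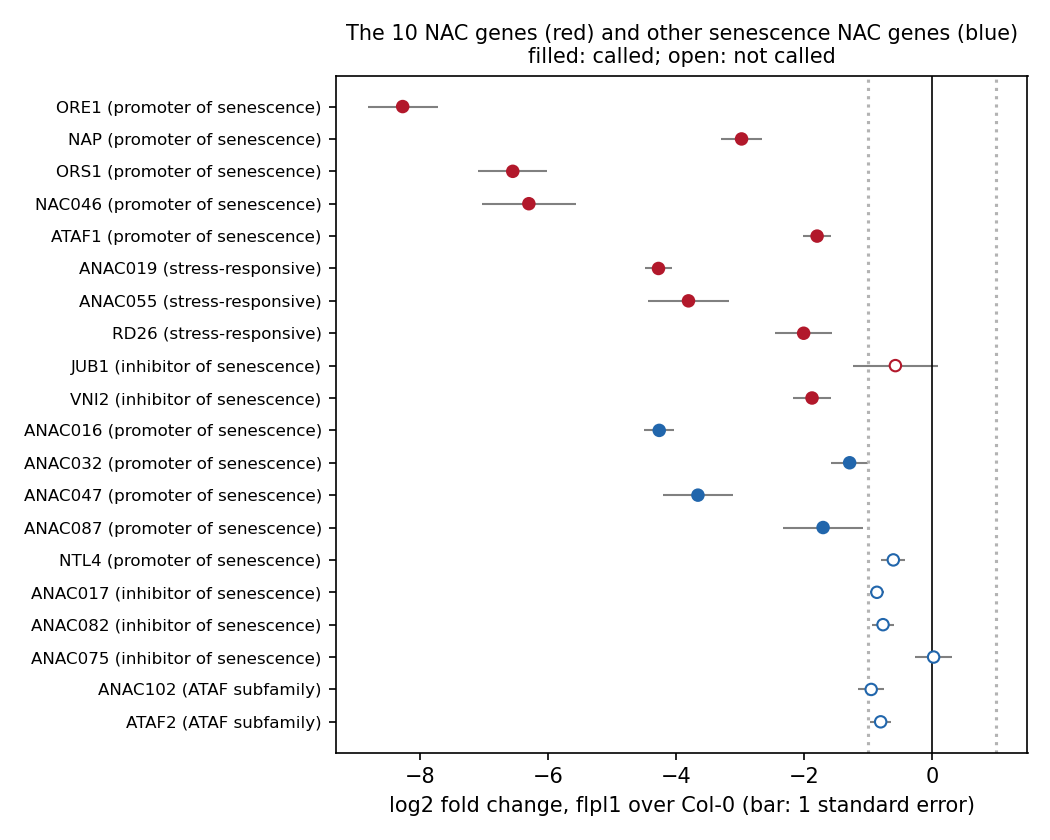
Log2 fold change of *flpl1* over Col-0 for the 10 NAC genes (red) and 10 other tested senescence NAC genes (blue), with bars of 1 standard error from edgeR, filled symbols for called genes and dotted lines at a 2-fold change. *ORE1* lies farthest to the left at -8.27, and *JUB1* is the only open red symbol.

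The annotation names 90 NAC genes besides the 10, and these include the 11 of the list above. Of the 90, 51 were tested, 16 fell, among them the 4 just given, and 11 rose, with a median log2 fold change of -0.60. That is 31.37% lower and 21.57% higher, beside 14.4% and 19.8% of all tested genes, so the share of rises was near that of all genes. Among genes with a mean of at least 1 FPKM in the higher group, the 5 largest falls were in *ANAC016*, *NAC1* (-3.98), *NAC048* (-3.84, and -4.50 without *flpl1* replicate 3), *NAC036* (-3.83) and *ANAC047*. *NAC1*, an auxin-related gene with a miR164 site, was at 1.63, 1.46 and 1.93 FPKM in *flpl1* and at 23.63, 33.74 and 31.05 FPKM in Col-0. *NAC080* (-3.28; edgeR, adjusted p = 0.00355) and *NAC100* (-1.40; edgeR, adjusted p = 0.0355), which also have a site, fell too. The call of *NAC100* was lost without *flpl1* replicate 1 (-1.19), *flpl1* replicate 3 (-1.36), Col-0 replicate 2 (-1.39) or Col-0 replicate 3 (-1.01). *NAC036* lies on Chr. 2 and fell from 193.75, 125.11 and 99.82 FPKM in Col-0 to 7.15, 9.30 and 10.70 FPKM in *flpl1*. The 5 largest rises by the same rule were in *NAC101* (4.57, and 6.31 without Col-0 replicate 1), *NTL8* (3.77), *VND1* (3.49, and 4.25 without Col-0 replicate 1), *NAC073* (3.33) and *NAC057* (2.82). *NTL8* and *VND1* also lie on Chr. 2. *NAC101*, also known as VND6, and *VND1* are switches of xylem formation, and *NAC073*, also known as SND2, acts in the secondary wall. These xylem genes were low in both groups, with at most 2.54 FPKM in any library.

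The genes directly next to the 10 were compared by position. Of these 20 neighbours, 10 were tested, 6 fell and 1 rose, beside 14.4% called lower and 19.8% higher among all tested genes. The called neighbours include *SWEET15* and *PIF4*, which are also in the lists of targets and regulators that follow. They also include AT1G01725, which overlaps *ATAF1* by 28 bp. Another NAC gene is the neighbour in 3 cases, and all 3 fell together with the gene beside them. *ANAC047* lies 6362 bp from *NAC046*. *NAM* (AT1G52880), 6461 bp from *ANAC019*, was at 7.55, 5.30 and 8.92 FPKM in *flpl1* and at 56.65, 79.69 and 98.17 FPKM in Col-0 (log2 fold change -3.27; edgeR, adjusted p = 9.59e-05). *NAC2* (AT3G15510), 7421 bp from *ANAC055*, was at 8.91, 4.17 and 12.11 FPKM against 34.85, 53.40 and 59.46 FPKM (log2 fold change -2.40; edgeR, adjusted p = 0.000977). Next to *ORE1*, AT5G39600 was at -0.03 (edgeR, adjusted p = 0.871), and *RABG1* was at 0 in each library. *PIF4*, 3790 bp from *JUB1* at higher coordinates, rose, while *JUB1* was not called.

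The regulators that act above these NAC genes were compared next. Of 16 listed, 13 had a row in the tables and were tested, 7 fell and 2 rose, with a median log2 fold change of -1.12. The shares were 53.85% lower and 15.38% higher, beside 14.4% and 19.8% of all tested genes. In the ethylene branch, *EIN3*, whose product binds the *ORE1* promoter, fell from 104.29, 131.02 and 108.11 FPKM in Col-0 to 32.46, 38.86 and 47.13 FPKM in *flpl1* (log2 fold change -1.39 ± 0.16, SE; edgeR, adjusted p = 0.000345). Its homologue *EIL1*, on Chr. 2, rose from 33.48, 24.78 and 25.30 FPKM to 81.62, 68.52 and 61.82 FPKM (1.48 ± 0.21, SE; edgeR, adjusted p = 0.000879). The groups did not overlap for either gene, and the directions were opposite. *EIN2*, which codes for the membrane protein above them, was at -0.82 and under the 2-fold limit.

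The bHLH factors PIF4 and PIF5 promote senescence in darkness. *PIF4*, also on Chr. 2, rose from 172.80, 155.95 and 124.52 FPKM in Col-0 to 385.49, 367.18 and 422.55 FPKM in *flpl1* (log2 fold change 1.51 ± 0.19, SE; edgeR, adjusted p = 0.000549), which is 0.96 above the median of its chromosome. *EIL1* was 0.93 above that median. *PIF5* was at -0.12 with a 95% interval of -0.43 to 0.18.

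The abscisic acid factors *ABF3* (-1.73), *ABF4* (-1.45) and *ABF2* (-1.12) fell, while *EEL* (-0.16) and *ABI5* (-1.19; edgeR, adjusted p = 0.159), both on Chr. 2, were not called. *ABI5* was below 1 FPKM in all libraries, and it was called at -2.16 without *flpl1* replicate 3. The jasmonate factors *MYC2* (-1.53), *MYC4* (-1.30) and *MYC3* (-1.02) were called lower, 3 of 3, beside 14.4% of all tested genes. MYC2 acts on *ANAC019* and its relatives. *MYC3* sits at the 2-fold limit and kept its call in 10 of 15 alternatives, without it when *flpl1* replicate 1 (-0.95) or Col-0 replicate 2 (-0.98) was left out.

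Of 25 listed targets of the NAC genes, 23 were tested, 12 fell and 3 rose, with a median log2 fold change of -1.66. This is 52.17% called lower and 13.04% higher, beside 14.4% and 19.8% of all tested genes. The genes of chlorophyll breakdown were lower in 4 of 5 cases. *NYE2*, which helps to dismantle chlorophyll complexes, was at 0.35, 0.46 and 0.30 FPKM in *flpl1* and at 9.39, 43.79 and 38.17 FPKM in Col-0, with a log2 fold change of -6.17 ± 0.64 (SE; edgeR, adjusted p = 0.000239). The gene for pheophytin hydrolase, *PPH*, fell by 2.14 on the log2 scale, from 111.60, 213.79 and 193.91 FPKM in Col-0 to 30.01, 37.87 and 36.80 FPKM in *flpl1*. The others called were *NYE1* (-2.53) and *PAO* (-1.84). *NYC1*, for a chlorophyll b reductase, was at -0.84 and under the 2-fold limit.

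The nuclease genes were higher in *flpl1*, where *ORE1* was lower. *BFN1*, a nuclease gene that ORE1 activates, was at 0.36, 2.62 and 1.94 FPKM in *flpl1* and at 0.38, 0.14 and 0.32 FPKM in Col-0, so *flpl1* replicate 1 lay within the Col-0 range. It was called higher at 2.65 ± 0.77 (SE; edgeR, adjusted p = 0.0193). The call was kept in 8 of 14 alternatives and lost without *flpl1* replicate 2 (2.12), Col-0 replicate 2 (2.27) or Col-0 replicate 3 (2.73). *RNS3*, a ribonuclease gene, was at 0.79, 5.87 and 3.45 FPKM in *flpl1* and at 0.51, 0.25 and 0.34 FPKM in Col-0, and rose by 3.31 ± 0.76 on the log2 scale (SE; edgeR, adjusted p = 0.00684), with the same call in all 14 alternatives and a value of 2.61 without *flpl1* replicate 2. Both genes were low in all libraries, and *flpl1* replicate 1 was the lowest of its group in each. Both are also known from xylem cells that die as they mature. The xylem wall gene *IRX1* was at 3.51, 5.80 and 4.09 FPKM in *flpl1* against 0.35, 0.09 and 0.14 FPKM in Col-0, and the defining xylem gene *VND7* was at 0.21, 0.51 and 0.46 against 0.03, 0.11 and 0.26 FPKM. *VND7* did not pass the filter on low counts, and its groups overlapped. The part of these xylem genes in the result was not tested.

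The sucrose transporter gene *SWEET15*, known for its rise in senescent leaves, was at 0.06, 0.23 and 0.14 FPKM in *flpl1* and at 4.77, 2.94 and 16.99 FPKM in Col-0, with a log2 fold change of -5.68 ± 0.87 (SE; edgeR, adjusted p = 0.00119), and -4.63 without Col-0 replicate 3. It is the neighbour of *VNI2* on Chr. 5. The phosphatase gene *SAG113*, a target of NAP, fell by 2.09 on the log2 scale, and was at -1.44 without Col-0 replicate 3. In abscisic acid synthesis, *NCED3* fell by 1.83 on the log2 scale. *AAO3*, on Chr. 2, was at -0.60, under the 2-fold limit, and at -1.16 relative to the median of that chromosome. *ERD1*, a Clp protease subunit gene bound by the ANAC019 group under drought, fell by 2.74 on the log2 scale, from 162.89, 245.11 and 289.06 FPKM in Col-0 to 24.04, 34.30 and 35.18 FPKM in *flpl1*.

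Of the targets of RD26, *CV*, for the removal of chloroplast proteins, and *LKR*, for lysine catabolism, were both lower. *LKR* fell by 2.73 on the log2 scale. *CV* lies on Chr. 2 and was at 0.48, 10.33 and 20.16 FPKM in *flpl1* and at 51.13, 95.58 and 133.63 FPKM in Col-0, with a log2 fold change of -3.03 ± 0.90 (SE; edgeR, adjusted p = 0.0207). The *flpl1* libraries were widely spread but all below Col-0. The call was lost without *flpl1* replicate 2 (-3.05) or Col-0 replicate 3 (-2.69), and the value was -3.94 without *flpl1* replicate 3.

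The targets of the inhibitors were lower, higher or not called. *DREB2A*, which JUB1 activates, fell by 2.79 on the log2 scale, and *DWF4*, a brassinosteroid synthesis gene which JUB1 represses, rose by 1.32. *GA3OX1*, for gibberellin synthesis, was at 0.94 and not called (95% interval -0.11 to 1.99), and it was called at 1.26 without *flpl1* replicate 3. Of the targets of VNI2, *RD29A* fell by 1.66 on the log2 scale, *RD29B* was at -1.49 (edgeR, adjusted p = 0.0681), and the cold-response genes *COR15A* (0.82) and *COR15B* (0.40), both on Chr. 2, were not called. *RD29B* was called without Col-0 replicate 1 (-1.77) or Col-0 replicate 2 (-1.83) and was at -0.67 without Col-0 replicate 3, and *COR15A* was called higher without Col-0 replicate 1 (1.63). Among the remaining listed targets, the chloroplast factor genes *GLK1* (0.52) and *GLK2* (-0.80) were both under the 2-fold limit. *GLK1* lies on Chr. 2 and was at -0.03 relative to the median of that chromosome. The ethylene synthesis gene *ACS2* and the cytokinin breakdown gene *CKX3* were at most at 0.11 FPKM and did not pass the filter.

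**Figure D4:**
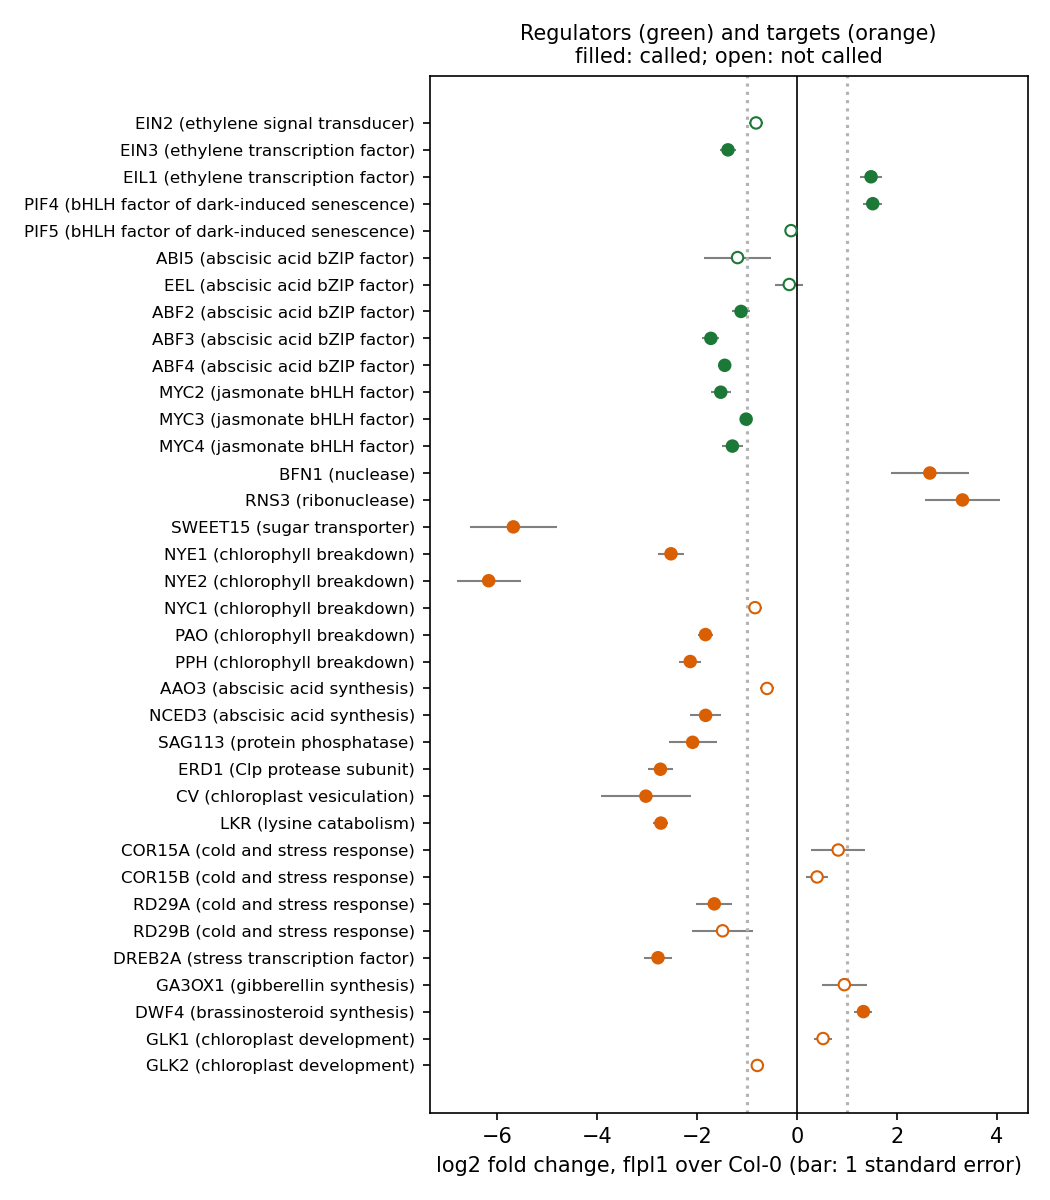
Log2 fold change of *flpl1* over Col-0 for 13 regulators (green) and 23 targets (orange) of the NAC genes, with bars of 1 standard error from edgeR, filled symbols for called genes and dotted lines at a 2-fold change. *NYE2* and *SWEET15* lie farthest to the left, at -6.17 and -5.68, and *RNS3* and *BFN1* farthest to the right, at 3.31 and 2.65.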

How the data were processed

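RNA-seq of fully mature leaves from 3 *flpl1* and 3 Col-0 plants was analysed, 1 library per plant. Groups and replicate numbers came from the sample labels. Paired reads had been trimmed by the authors (cutadapt 1.9.1), mapped to TAIR10 (HISAT2) and counted per gene (HTSeq 0.6.1). The deposited count is the raw number of reads on a gene. The deposited FPKM was computed by the authors from the same count, the exonic gene size and the library total, and recomputing it in that way matched 100.0% of the values to within 0.01. Use of the strand is not given in the sources used here. FPKM values are shares of each library and do not give the amount of RNA per cell.

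Counts were scaled by TMM, filtered with filterByExpr and tested with edgeR 4.0.16 (R 4.3.3) in 1 contrast with no covariate. Benjamini-Hochberg adjustment was made over 18638 genes, and a call needed an adjusted p under 0.05 together with at least a 2-fold change. The biological coefficient of variation was 22.21%. With totals of 19465078 to 24633070 counts per library, counting error limits low genes, and the number of plants limits the rest. The fits were tested on simulated data. Alternatives were RLE scaling, centring on genes outside Chr. 2, no filter, a mean FPKM of at least 5, DESeq2 1.42.0, limma 3.58.1 on log2(FPKM + 1) or log2(FPKM + 0.1), edgeR's test against a 2-fold change (glmTreat), a block for the replicate number, and fits that left out 1 plant.

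The 10 genes and the lists (other senescence NAC genes, regulators, targets, NAC family, cell type markers) were chosen with earlier results of these data known. Named were all genes of the first 3 lists, the 5 largest rises and the 5 largest falls of the NAC family with a mean FPKM of at least 1 in the higher group, and the 3 genes most like *ORE1* and *NAP*. Genes with a miR164 site and genes next to the 10 were added by their sequence or position, after the lists. The deposited tables name genes only by locus, so the NAC family was taken from RefSeq symbols of TAIR10.1, in which 31545 of 32243 IDs were found. Sequences were read from that RefSeq assembly, and the deposited positions lie within its chromosome lengths. No near-identical copy (at least 95% identity over 100 bp, BLAST 2.17.0) was found for any of the 10 genes. Python 3.11.15 and matplotlib 3.10.9 drew the plots. The genome sequencing and flow cytometry of the study were not analysed here.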

Additional observations from a re-analysis of the deposited data

How the results depend on the processing

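The 9 NAC genes called lower kept that call under each alternative that could test them, except *RD26* in edgeR's test against a 2-fold change (adjusted p = 0.0505; range over its 15 alternatives 8.06e-06 to 0.0505), and *JUB1* was called in none. *ANAC055* and *JUB1* could not be tested with a mean FPKM of at least 5. No log2 fold change of the 10 changed sign. Precision is limited by 0 to 35 counts per *flpl1* library for *ORE1*, *ORS1*, *NAC046*, *ANAC055* and *JUB1*. The sample labels do not say whether the replicate numbers pair the plants. Correlations of deviations were 0.025, -0.125 and 0.102 for equal numbers and between -0.141 and 0.137 for unequal ones. Such values from 3 plants per group cannot exclude a shared batch. With the replicate number as a block, 2623 genes were called lower and 3656 higher instead of 2679 and 3697, 9 of the 10 NAC genes were called lower, and *BFN1* lost its call (adjusted p = 0.0681). With limma on log2(FPKM + 1), 2482 genes rose and 2568 fell and the median of all genes was -0.12, and with limma on log2(FPKM + 0.1) that median was -0.14. In the test against a 2-fold change 1467 genes were called lower and 2304 higher.

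In that same test 2 other senescence NAC genes and 4 regulators were called lower and 1 target higher. Where a mean FPKM of at least 5 was required, fewer genes were tested, and 1 other senescence NAC gene was called lower, 8 NAC family genes lower and 0 higher, and 1 target higher. Of the NAC family, 5 were called higher with limma on log2(FPKM + 1), and the median log2 fold change was -0.325 without a filter, -0.326 in DESeq2 and -0.756 in limma on log2(FPKM + 0.1). With each plant left out in turn, this median lay between -0.736 and -0.324, the latter without Col-0 replicate 3, and that of the other senescence NAC genes between -1.117 and -0.838, the former without *flpl1* replicate 1. The cause of these shifts was not tested.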
